A study of Mus musculus with 16 samples.

Results

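Head-to-head coding gene pairs are neighbouring protein-coding genes that lie on opposite strands and start close to each other, so that they are transcribed away from a shared stretch of DNA. The pairs were taken from the gene annotation deposited with a study of mouse macrophages. A pair had the minus-strand gene on the left and the plus-strand gene on the right, gene spans that did not overlap, and gene 5′ ends at most 1000 bases apart, on chromosomes 1 to 19 and on Ensembl gene models only. The annotation held 744 such pairs. They were formed by 1476 of the 20826 protein-coding genes on these chromosomes, or 7.09% (Wilson 95% interval 6.75 to 7.44%), out of 50578 gene models of all kinds. The pairs were chosen by position and biotype only, and no measured value entered the choice.

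The series comprised 16 libraries of mouse bone-marrow-derived macrophages, which are grown from marrow with the growth factor M-CSF. RNA-seq covered C57BL/6 wild-type cells, with 3 untreated samples and 3 given lipopolysaccharide (LPS), an outer-membrane component of Gram-negative bacteria. RiboTag, which recovers RNA bound to an epitope-tagged ribosomal protein, covered cells of LysM-Cre by RiboTag mice with 2 untreated samples, 2 after 6 h of LPS and 2 after 24 h, and the tag is limited to cells in which the LysM promoter has driven Cre. Ribosome profiling, which sequences the RNA fragments covered by ribosomes, had 2 untreated and 2 LPS samples of wild-type cells. How long LPS was given is not stated for each RNA-seq and ribosome profiling sample. Values per library were not analysed here, so nothing below describes expression, a response to LPS or the macrophage itself, and the sequencing depth is unknown. The results describe the gene models and the reference sequence around their starts.

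In vertebrate genomes RNA polymerase II often starts in both directions from a promoter, and where a coding gene lies on each side the shared stretch is called a bidirectional promoter. Such promoters are known to be rich in CpG dinucleotides and poor in TATA boxes, the motif that fixes a single start some distance downstream. Textbook cases join genes of DNA repair, nucleotide synthesis, mitochondrial function and the replication-dependent histones, and a shared promoter can let both partners be expressed together, although partners can also be regulated separately.

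The stretches between the starts differed widely in length and in motif content, and the sequences below show that range. Each is the plus strand of build mm10 as given by RefSeq (GRCm38.p6), 5′ to 3′, from the base after the start of the left gene to the base before the start of the right gene. Where Ensembl and RefSeq starts differed, the narrower stretch was taken, so none contains transcribed bases of either model. Capitals mark matches, on either strand, to the CCAAT box and to TATAA, a short form of the TATA box, as well as to GGGCGG (GC box), to CCGGAAG (ETS factors), to GCGCANGCG (NRF-1) and to GAAANNGAA (the interferon-stimulated response element, ISRE). A match describes letters only and is not evidence of a bound factor. The first 6 stretches carry genes of repair, mitochondrial translation and respiration.
Aimp2-Pms2: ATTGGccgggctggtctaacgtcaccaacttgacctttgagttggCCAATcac
Mrps12-Sars2: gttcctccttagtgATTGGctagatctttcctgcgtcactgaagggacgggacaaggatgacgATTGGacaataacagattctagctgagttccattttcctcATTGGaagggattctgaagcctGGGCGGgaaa
Osgep-Apex1: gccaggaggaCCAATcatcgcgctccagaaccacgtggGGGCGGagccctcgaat
Uqcrh-Lrrc41: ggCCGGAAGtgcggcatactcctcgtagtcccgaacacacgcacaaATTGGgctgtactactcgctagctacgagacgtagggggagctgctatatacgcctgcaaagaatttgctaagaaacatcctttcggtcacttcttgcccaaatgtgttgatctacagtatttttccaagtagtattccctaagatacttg
Sdhd-Timm8b: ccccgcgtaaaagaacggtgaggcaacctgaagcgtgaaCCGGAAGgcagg
Lig4-Abhd13: acgggctaccgtagcatgaa
The Aimp2-Pms2 stretch lay at chr5:143909848-143909900 between a scaffold protein of the tRNA synthetase complex and a mismatch repair protein, and held a CCAAT box at either end, one on each strand. The Mrps12-Sars2 stretch (chr7:28741822-28741956) separated a protein of the mitochondrial ribosome from the mitochondrial seryl-tRNA synthetase and held 3 CCAAT boxes and 1 GC box. Osgep-Apex1 (chr14:50924894-50924948) joined a tRNA-modifying enzyme and the abasic-site endonuclease of base excision repair, with 1 CCAAT box and 1 GC box. Uqcrh-Lrrc41 (chr4:116075072-116075268) and Sdhd-Timm8b (chr9:50603850-50603900) carried respiratory chain genes of complex III and complex II, and each held 1 ETS match. Lig4-Abhd13 (chr8:9977687-9977706), beside the ligase of end joining, was 20 bases long and held none of the 6 motifs.

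The next 3 stretches each lie between a histone H2A and a histone H2B gene of the cluster on chromosome 13, and show the motif-dense form of the shared promoter.
Hist1h2ap-Hist1h2br: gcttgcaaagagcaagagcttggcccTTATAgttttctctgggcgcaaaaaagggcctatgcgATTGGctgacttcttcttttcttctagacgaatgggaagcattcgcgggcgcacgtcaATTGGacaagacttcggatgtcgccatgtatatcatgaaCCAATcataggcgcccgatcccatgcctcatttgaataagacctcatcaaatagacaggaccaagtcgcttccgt
Hist1h2ag-Hist1h2bj: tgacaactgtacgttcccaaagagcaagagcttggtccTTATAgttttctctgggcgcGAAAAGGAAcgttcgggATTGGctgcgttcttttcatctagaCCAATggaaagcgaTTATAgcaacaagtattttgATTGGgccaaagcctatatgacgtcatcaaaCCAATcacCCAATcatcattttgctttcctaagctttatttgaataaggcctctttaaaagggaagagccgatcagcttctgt
Hist1h2ba-Hist1h2aa: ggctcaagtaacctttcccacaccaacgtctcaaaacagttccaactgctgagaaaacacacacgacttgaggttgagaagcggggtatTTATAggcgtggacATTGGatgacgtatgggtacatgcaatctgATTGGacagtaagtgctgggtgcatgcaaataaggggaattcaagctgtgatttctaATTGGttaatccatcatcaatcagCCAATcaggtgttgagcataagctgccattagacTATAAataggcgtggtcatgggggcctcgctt
They lay at chr13:21833508-21833742, chr13:22042950-22043197 and chr13:23934157-23934436. They held 3, 5 and 4 CCAAT boxes and 1, 2 and 2 TATAA matches, and their GC content was 48.5%, 42.3% and 45.7%. The last 2 stretches belong to the only listed genes of the interferon response and of the LPS receptor pathway that were in a pair.
2010002M12Rik-Ifit1: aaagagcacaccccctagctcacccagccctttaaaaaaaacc
Pus7l-Irak4: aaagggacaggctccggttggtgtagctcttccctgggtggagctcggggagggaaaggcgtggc
The stretch beside Ifit1, an interferon-induced RNA-binding protein, lay at chr19:34640828-34640870. The stretch beside Irak4, the kinase that passes on signals of Toll-like receptors, lay at chr15:94543548-94543612. Neither stretch held any of the 6 motifs as spelled here, which says nothing about motifs outside these windows.

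Partners started close together. The median distance between gene 5′ ends was 133.5 bases (interval of the median 119 to 143, n = 744), with quartiles at 69 and 263 bases and extremes of 3 and 987 bases. Of the 744 pairs, 117 (15.7%) were within 50 bases, 292 (39.2%) within 100, 499 (67.1%) within 200, 599 (80.5%) within 300 and 676 (90.9%) within 500. The remaining 68 pairs (9.14%) were spread over the farther part of the allowed range. The limit of 1000 bases therefore cut few pairs at its edge.

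The closest pairs were Dhrs1-Nop9 on chromosome 14 and Slc7a6os-Prmt7 on chromosome 8, both 3 bases apart, followed by 2810004N23Rik-Gnpat and Bag5-Apopt1 at 4 bases each. Nop9 acts in ribosomal RNA processing, Prmt7 is an arginine methyltransferase, Gnpat starts ether lipid synthesis and Bag5 is a co-chaperone of Hsp70. RefSeq placed the same starts 9, 121, 4 and 12 bases apart. So 1 of the 4 kept its exact distance there, and Slc7a6os-Prmt7 had the widest disagreement. Near the upper end of the allowed range were Asphd1-Sez6l2 at 981 bases and Btf3l4-Txndc12 at 987. Pairs just outside the limit, which are not members, were Sgsm2-Tsr1 at 1011 bases, Smim7-Tmem38a at 1015 and Ppt2-Prrt1 at 1023.

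Orientation and distance went together. Among non-overlapping coding neighbours whose facing ends were at most 1000 bases apart, 744 of 1840 (40.4%, 38.2 to 42.7%) were head-to-head, 554 were tail-to-tail and 542 lay on the same strand. The distance bounds every group alike, but the medians were 133.5 bases for head-to-head pairs, 377.5 for tail-to-tail pairs and 517 for same-strand pairs, and the intervals of the 3 medians did not overlap. Head-to-head pairs made up 69.2% (64.6 to 73.4%) of neighbours 1 to 100 bases apart and 58.6% (53.4 to 63.7%) of those at 101 to 200 bases. The share was 46.9% at 201 to 300 bases, 25.6% at 301 to 500 bases and 12.3% (9.85 to 15.4%) at 501 to 1000 bases. Beyond the limit, at 1001 to 2000 bases, it was 11.2% (9.41 to 13.4%), an interval that overlaps that of the preceding class. No chance model of gene order was fitted, so these shares are descriptions of this annotation.

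**Figure D1:**
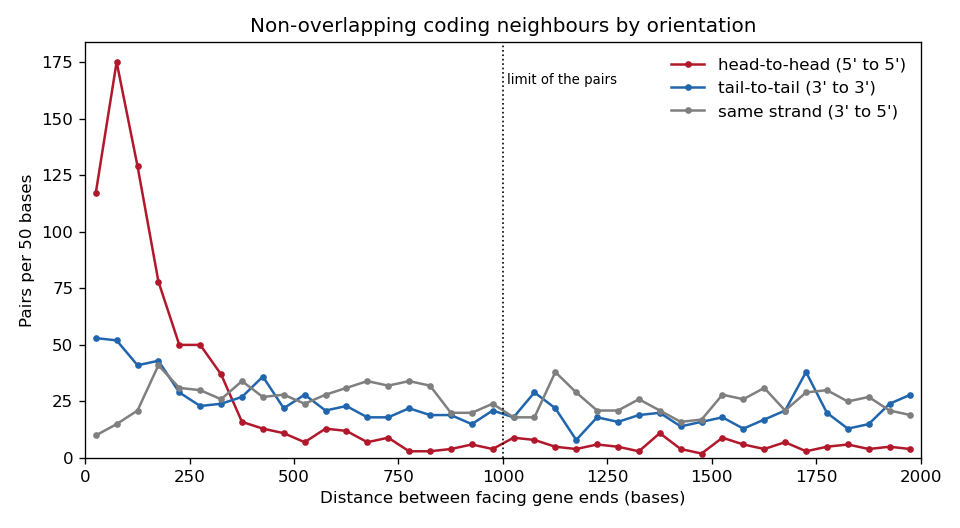
Number of non-overlapping pairs of neighbouring coding genes (vertical axis, pairs per 50 bases) against the distance between their facing ends (horizontal axis, bases), for the 3 orientations; the dotted line is the limit of 1000 bases. Head-to-head pairs peak below 200 bases, where 499 of the 744 lie, and are the least frequent orientation beyond 500 bases.

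The share of coding genes in a pair ranged over chromosomes from 5.06% (upper bound 6.60%) on chromosome 3 to 10.1% (lower bound 8.39%) on chromosome 8. Chromosome 13, which carries 11 of the 12 histone pairs described below, had 9.20%. Genes of the olfactory and vomeronasal receptor families, chemosensory receptors that lie in large arrays, were nearly absent. Of 1420 such genes 1 was in a pair, Vmn1r4, 90 bases from the nucleotidase gene Nt5c3. Without these families 7.60% of coding genes were in a pair.

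Of the 16 textbook bidirectional pairs examined, 7 met the rule. Mcm4, a subunit of the replicative helicase, started 466 bases from Prkdc, the catalytic subunit of the DNA-dependent protein kinase. Atm, the kinase that signals double-strand breaks, lay 307 bases from Npat, a coactivator of histone genes. Brca1, of homologous recombination, lay 194 bases from the autophagy receptor gene Nbr1. The mismatch repair gene Pms2 lay 117 bases from Aimp2. Col4a4 and Col4a3, chains of one basement membrane collagen, were 72 bases apart, and Mrps12 and Sars2 were 148 bases apart.

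The other 9 textbook pairs were arranged head to head, but their gene models overlapped at the 5′ ends and so were not counted. Ppat and Paics, enzymes of purine synthesis, overlapped by 271 bases. Surf1 and Surf2 overlapped by 163 bases, Col4a1 and Col4a2 by 21, and the antigen processing genes Psmb9 and Tap1 by 211. The largest overlap on the list was that of Atp5j and Gabpa, at 700 bases, and Sirt3 and Psmd13 overlapped by 341. For 2 of the 9 the overlap came from alternative transcripts. The transcripts with the longest coding sequence of the chaperonin genes Hspd1 and Hspe1 started 108 bases apart, although the gene models overlapped by 111 bases, and those of Ranbp1 and Trmt2a started 151 bases apart, although the models overlapped by 53. Over the whole annotation 390 further pairs overlapped at their 5′ ends by at most 1000 bases, which would raise the number of pairs to 1134. The non-overlap rule thus had more weight than the distance limit, since a limit of 2000 bases would give 854 pairs.

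The share of genes in a pair differed between gene lists. For reference, 7.09% of all coding genes were in a pair. Among genes of DNA replication and repair the share was 19 of 85 (22.4%, 14.8 to 32.3%). Besides those named above it included Fancd2, of crosslink repair, 44 bases from Emc3, and Lig4, 21 bases from Abhd13. Apex1 lay 75 bases from Osgep, and Xpc, the damage sensor of nucleotide excision repair, 44 bases from the RNA-binding Lsm3. Rad51c, a recombinase paralog, lay 111 bases from Tex14. The helicase gene Wrn was among the widest pairs, 798 bases from Purg. Of the origin recognition genes, Orc3 lay 13 bases from the mitochondrial arginyl-tRNA synthetase gene Rars2, Orc1 87 bases from the splicing factor gene Prpf38a, and Orc6 119 bases from Vps35.

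Chaperones had 8 of 34 genes in a pair (23.5%, lower bound 12.4%). Hspa1a, an inducible Hsp70, lay 547 bases from its relative Hspa1l. Hspa14 lay 216 bases from Cdnf, Hsp90b1, the Hsp90 of the endoplasmic reticulum, 302 bases from Ttc41, and Dnajc2 32 bases from the proteasome ATPase gene Psmc2. Cct5, a chaperonin subunit, was 5 bases from Fam173b. The type IV collagens had 2 of 4 genes in a pair, Col4a3 and Col4a4, since Col4a1 and Col4a2 overlapped.

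Genes whose products act in mitochondria were frequent. The mitochondrial ribosome had 17 of 77 genes in a pair (22.1%, 14.3 to 32.5%), among them Mrpl10 with Lrrc46 (153 bases), Mrpl30 with Mitd1 (66 bases), Mrpl32 with the proteasome subunit gene Psma2 (205 bases) and Mrpl37 with Cyb5rl (120 bases). The respiratory chain and ATP synthase list had 19 of 82 (23.2%, 15.4 to 33.4%). In it Atp5c1 lay 83 bases from Kin, Atp5h 166 bases from Kctd2 and Cox4i1 143 bases from Gm27021. Of the subunits of succinate dehydrogenase, Sdha lay 29 bases from Ccdc127 and Sdhd 52 bases from Timm8b, a chaperone of mitochondrial protein import. The aminoacyl-tRNA synthetases had 7 of 37 (18.9%, 9.48 to 34.2%), with Kars 36 bases from Terf2ip, Wars 98 bases from Wdr25, and Yars 33 bases from S100pbp.

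The cytosolic ribosome had 9 of 76 genes in a pair (11.8%, lower bound 6.36%), an interval that includes the share of all coding genes. Rpl35a lay 235 bases from Iqcg, Rpl36al 74 bases from the glycosyltransferase gene Mgat2, Rpl4 283 bases from Zwilch and Rpl7a 87 bases from the Mediator gene Med22. Splicing and RNA processing had 16 of 58 (27.6%, 17.8 to 40.2%). Snrpd2, a core protein of the spliceosomal particles, lay 526 bases from Qpctl, the helicase gene Snrnp200 106 bases from 1810024B03Rik, Sf3a1 57 bases from Ccdc157 and Srsf7 155 bases from Ttc39d. A pattern chosen after the values were seen involved relatives in both partners. Hnrnpa2b1 lay 466 bases from the chromobox gene Cbx3, and Hnrnpa1 lay 616 bases from the chromobox gene Cbx5, so an hnRNP A/B gene faced a heterochromatin protein gene at both places.

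On 6 lists at most 1 gene was in a pair. The LPS response list, which holds cytokines, chemokines and feedback inhibitors, had 0 of 34 (upper bound 10.2%), and the macrophage identity list 0 of 20 (upper bound 16.1%). Interferon-stimulated genes had 1 of 40 (2.50%, 0.443 to 12.9%), Ifit1, which lay 128 bases from 2010002M12Rik. The LPS receptor pathway had 1 of 24, Irak4, 96 bases from Pus7l, and antigen processing had 1 of 17, Psme2, 595 bases from the ubiquitin ligase gene Rnf31. Purine and pyrimidine synthesis, a basic metabolic list, also had 1 of 24 (4.17%, 0.739 to 20.2%), Gart, 554 bases from Son. All of these intervals include 7.09%, so at these list sizes a share below that of all coding genes cannot be read from any of them alone.

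Families matched by symbol, chosen after the annotation had been examined, spread over a similar range. Intraflagellar transport and Bardet-Biedl genes, of the cilium, had 5 of 22 in a pair (22.7%, 10.1 to 43.4%). Proteasome subunits had 4 of 39 (10.3%, 4.06 to 23.6%). Zinc finger genes with Zfp or Zbtb symbols had 26 of 394 (6.60%, 4.54 to 9.49%), solute carriers 15 of 356 (4.21%, 2.57 to 6.83%) and chemokines 1 of 35, which was Ccl25, 110 bases from Elavl1. Keratins and keratin-associated proteins had 0 of 110 (upper bound 3.37%).

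**Figure D2:**
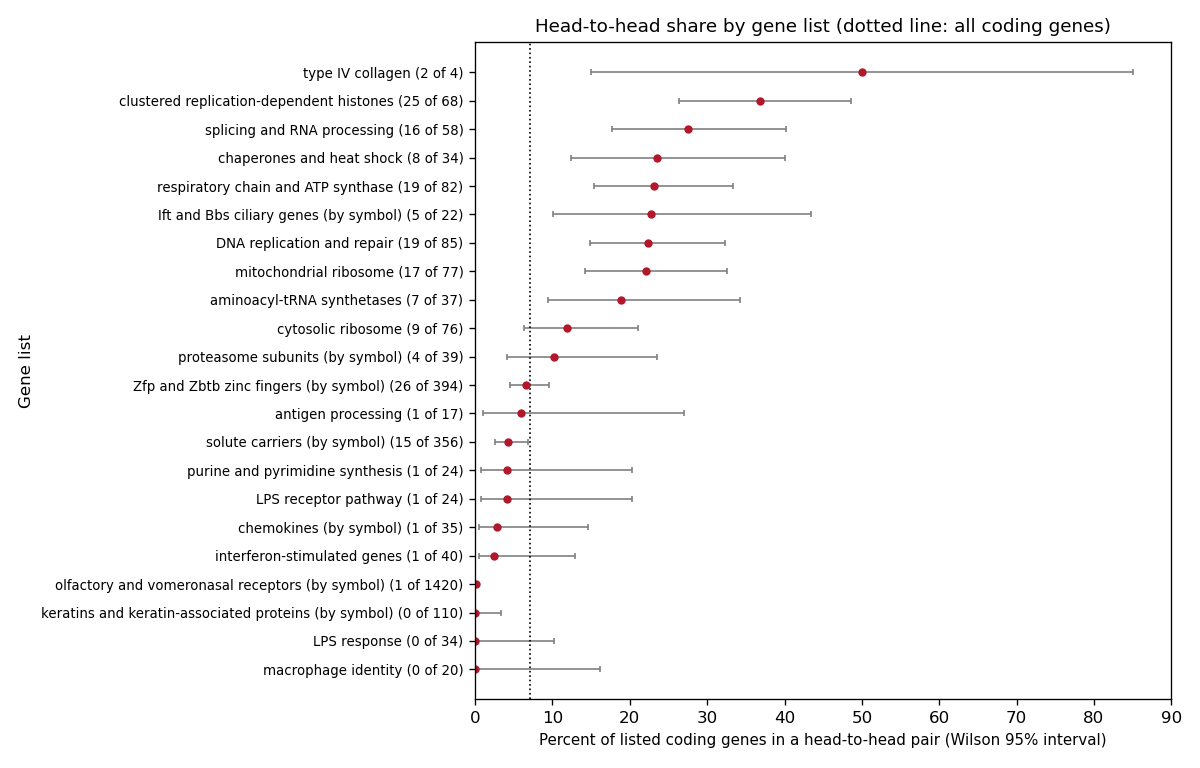
Percent of the coding genes of each list that were in a head-to-head pair (horizontal axis), with the count in brackets and Wilson 95% intervals as bars; the dotted line is the 7.09% of all coding genes. The intervals of the type IV collagen, histone, splicing, respiratory chain, replication and repair, mitochondrial ribosome, chaperone, ciliary and aminoacyl-tRNA synthetase lists lie above the line, and those of receptors, keratins and solute carriers lie below it. Partners on the same list are counted as separate genes, which makes intervals too narrow. The 2 collagen genes are partners of each other, as are Mcm4 and Prkdc, and 24 of the 25 histone genes form 12 pairs.

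Apart from the textbook pairs, histones had the highest share of any list of over 4 genes. Of 68 replication-dependent histone genes in the clusters, 25 were in a pair (36.8%, 26.3 to 48.6%). They formed 12 pairs with each other, and all 12 joined 1 H2A gene and 1 H2B gene, whose products dimerise in the nucleosome. The other histone gene, Hist2h2ab, lay 156 bases from Bola1 in Ensembl, but RefSeq placed those starts 21402 bases apart. The 12 distances ran only from 236 to 306 bases, with a median of 274.5. The first in list order were Hist1h2aa with Hist1h2ba at 306 bases, Hist1h2ac with Hist1h2bc at 275, Hist1h2ad with Hist1h2bf at 274 and Hist1h2ae with Hist1h2bg at 287. In RefSeq 10 of these pairs could be measured, and their distances ran from 164 to 281 bases. Of the 24 histone models 7 had no annotated 5′ untranslated bases, so the spacing rests partly on models that begin at the start codon.

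As the sequences above show, the histone stretches were rich in CCAAT boxes. The 8 pairs whose stretch was fully covered by promoter sequence held 3 to 5 CCAAT matches each, with a median of 3.5, counted over the whole stretch between the Ensembl starts. The 38 other covered pairs in the same range of distances had a median of 1, and 12 of them held at least 2, and the highest count among them was 7. A TATAA match was found in 7 of the 8 histone stretches and in 5 of the 38 others. GC content was 40.3 to 48.5% in the histone stretches and had a median of 60.1% in the others (46.1 to 72.5%). The 8 histone pairs are related by sequence and lie mostly in 1 cluster, so they are not independent cases.

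Both partners were on the lists in 18 pairs, and 12 of these were the histone pairs. The others were Col4a4-Col4a3, Mcm4-Prkdc, Mrps12-Sars2, Orc3-Rars2, Prpf38a-Orc1 and Rps28-Ndufa7, the last joining a protein of the cytosolic ribosome and a subunit of complex I at 29 bases. Partners with a shared symbol stem, a rough sign of relatedness that also takes in antisense names, made up 26 of 744 head-to-head pairs (3.49%, 2.40 to 5.07%). The share was 9 of 554 among tail-to-tail pairs (1.62%, 0.857 to 3.06%) and 46 of 542 among same-strand pairs (8.49%, 6.42 to 11.1%). The 12 histone pairs were among the 26, so the excess over tail-to-tail pairs rests largely on the histones. Apart from the histones the head-to-head set included Tmem176b-Tmem176a at 109 bases, Abhd14a-Abhd14b at 110, Fbxo44-Fbxo2 at 139, Safb2-Safb at 240 and Abca17-Abca3 at 921. Protein sequences were not used here, so likeness of the products was not measured.

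Promoter windows of 300 bases, from 250 before to 50 after the RefSeq start, were found for 1217 of the 1476 members and for 14786 of the coding genes in no pair. Here and below, genes in no pair include those of the 390 pairs left out for overlapping 5′ ends, unless they were in another pair. Promoters on chromosome 18 were not used here. Member promoters were richer in CpG. A window was called high in CpG when its ratio of observed to expected CpG dinucleotides was at least 0.6 and its GC content at least 50%. Of member promoters 82.5% (80.3 to 84.5%, 1004 of 1217) were high in CpG, against 45.8% (45.0 to 46.6%, 6771 of 14786) of coding genes in no pair. The median ratio was 0.854 in members and 0.574 in the others, and median GC content was 62.7% and 56.5%. Windows of 2 partners overlap where the starts are close, so they are not independent. With only the plus-strand partner of each pair the share was 83.4%.

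A coding gene close by in another orientation did not go with so high a share. Of genes with a tail-to-tail or same-strand coding neighbour within 1000 bases, and in none of the 744 pairs, 56.9% (54.4 to 59.5%, 822 of 1444) had a promoter high in CpG, with a median ratio of 0.680. Within the head-to-head set the share was 86.3% (84.0 to 88.3%) for pairs at most 300 bases apart.

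**Figure D3:**
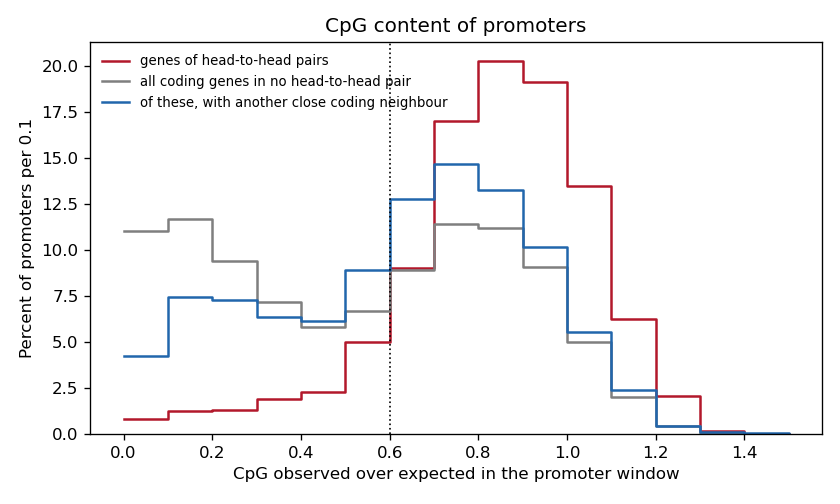
Distribution of the ratio of observed to expected CpG in promoter windows (horizontal axis; vertical axis, percent of promoters per 0.1) for members, for coding genes in no head-to-head pair, and for those of the latter with another close coding neighbour; the dotted line is the minimum of 0.6. Members form 1 peak around their median of 0.854, while coding genes in no pair also have many promoters with ratios below 0.3. Genes whose only head-to-head partner overlaps them at the 5′ end are counted as in no pair.

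Pairs were mostly alike at both starts. In the 556 pairs with both promoters, both were high in CpG in 413 (74.3%), 1 was in 93 and neither was in 50. The 50 pairs below the thresholds at both starts included Tmem176b-Tmem176a, Best1-Rab3il1 and 2010002M12Rik-Ifit1, which were picked after their values were seen. Some of the 50 missed only the GC minimum. Fastkd2 and Mdh1b, for example, had CpG ratios of 0.951 and 0.873.

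TATA boxes were rare in members. TATAAA on the strand of the gene was found in 3.37% (2.49 to 4.54%, 41 of 1217) of member promoters, in 9.29% (8.84 to 9.77%) of coding genes in no pair and in 5.33% (4.29 to 6.61%) of genes with another close neighbour. In 520 of 556 pairs neither promoter had one, in 34 pairs 1 had, and in 2 pairs both had. Restricted to 20 to 40 bases before the start, where a working TATA box lies, the shares were 0.904% in members and 3.07% in coding genes in no pair.

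Motifs of general promoter factors were more frequent in members, counted on both strands of the window. The ETS motif CCGGAAG was found in 29.2% (26.7 to 31.8%) of member promoters, in 11.1% (10.6 to 11.7%) of coding genes in no pair and in 17.2% (15.4 to 19.3%) of genes with another close neighbour. The NRF-1 motif GCGCANGCG, of a factor known for its nuclear genes of mitochondrial function, was found in 21.5% (19.3 to 23.9%), 8.34% and 12.2% of these groups. The YY1 motif AANATGGCG was found in 7.23% of members and 3.06% of coding genes in no pair, and the cyclic AMP response element TGACGTCA, a palindrome counted once, in 4.85% and 2.23%. The GC box GGGCGG, bound by Sp1, was found in 67.3% and 47.0%, and the CCAAT box, bound by NF-Y, in 43.1% (40.4 to 45.9%) and 38.4% (37.6 to 39.2%). With only the plus-strand partner of each pair the CCAAT share was 40.9% (37.1 to 44.8%), an interval that overlaps that of coding genes in no pair. Without the receptor families the shares in coding genes in no pair were 12.1% for ETS, 9.09% for NRF-1, 51.1% for the GC box and 7.99% for TATAAA. Over all 16003 coding promoters, members included, ETS was found in 12.5% and NRF-1 in 9.34%.

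Several of these motifs contain CpG, so they were also counted among promoters high in CpG alone, 1004 of members and 6771 of coding genes in no pair. ETS was found there in 32.1% (29.3 to 35.0%) of members and 18.7% (17.8 to 19.6%) of the others, and NRF-1 in 25.1% (22.5 to 27.9%) and 16.6% (15.7 to 17.5%). The YY1 shares were 8.27% (6.72 to 10.1%) and 5.54% (5.02 to 6.11%), and those of TATAAA 1.79% (1.14 to 2.82%) and 3.31% (2.91 to 3.76%). For the CCAAT box they were 41.2% (38.2 to 44.3%) and 36.4% (35.3 to 37.6%). For the cyclic AMP response element they were 5.38% (4.15 to 6.95%) and 3.66% (3.24 to 4.14%). The order of the GC box turned around, with 74.0% (71.2 to 76.6%) in members and 77.4% (76.3 to 78.3%) in the others. Its higher share over all members thus did not hold at high CpG content. Those of ETS, NRF-1, YY1, the CCAAT box and the cyclic AMP response element did, with intervals that did not overlap. For the last of these the bounds nearly met. Overlapping windows of 2 partners can hold the same match, so the intervals of members are too narrow. With only the plus-strand partner, over all promoters, ETS was found in 28.7%, NRF-1 in 21.3% and YY1 in 7.79%. That count was not made among promoters high in CpG. A member window can also take in the start of the partner, for which no allowance was made.

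Motifs of the factors that act in the LPS response were not more frequent in members. The NF-κB motif, searched as GGGANTTTC, was found in 1.15% (0.686 to 1.92%) of member promoters and 1.12% (0.965 to 1.31%) of coding genes in no pair. The ISRE motif GAAANNGAA was found in 6.24% (5.02 to 7.75%) and 8.32% (7.88 to 8.77%). Without the receptor families the latter was 7.78% (7.34 to 8.24%), and the intervals overlapped. Among promoters high in CpG its shares were 5.68% and 5.30%, with overlapping intervals. Each spelling takes in only part of what these factors bind.

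**Figure D4:**
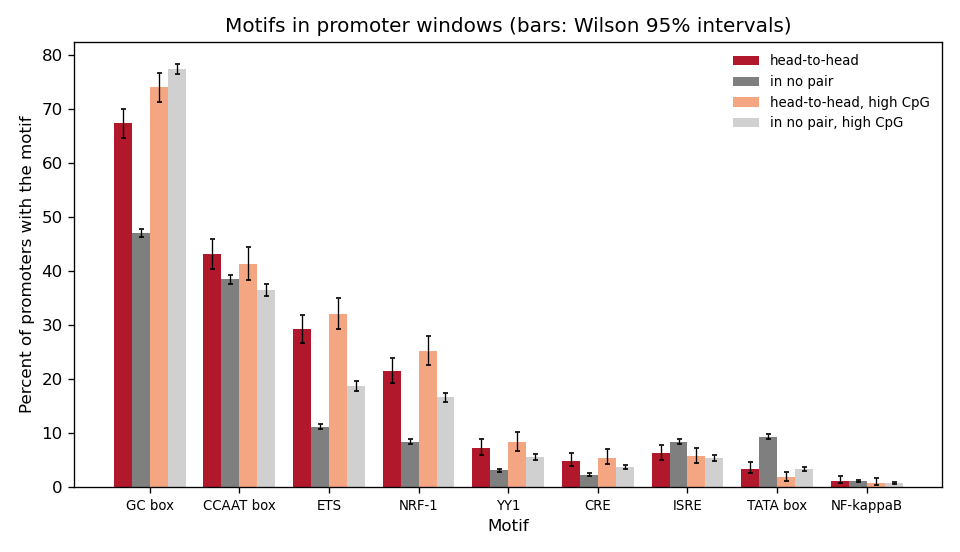
Percent of promoter windows with each motif (vertical axis) in members and in coding genes in no pair, over all promoters and over those high in CpG; bars are Wilson 95% intervals. ETS and NRF-1 are higher in members in both views, the GC box only over all promoters, and TATA boxes are lower in members.

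The stretch between the starts could be read for 536 pairs, and 512 of these were at least 21 bases apart and long enough to describe. A stretch was read only where the promoter windows of both partners covered it, which the widest stretches did not allow. Left out were, for example, Mrpl41-Pnpla7 at 935 bases and Btf3l4-Txndc12 at 987. Some close pairs were left out too, such as Pxmp2-Pole at 120 bases. The values below thus describe mainly the closer pairs. A GC box lay in 49.8% of the 512 stretches, a CCAAT box in 35.4%, an ETS match in 17.8% and an NRF-1 match in 13.7%, whereas YY1 lay in 1.17%. YY1 was in 7.23% of whole member windows, but that share is counted per gene, over other bases and another set of pairs. The shares are thus not comparable, and the place of YY1 matches relative to the starts was not counted. Neither strand held most of the CCAAT boxes, with 174 matches on the plus strand and 167 on the minus strand. The ETS motif had 61 on the plus strand and 38 on the minus strand. Base composition changed little across the stretch. Pooled over all bases, from its left to its right part, each of 34064 bases, the share of T went from 18.5 to 19.9% and that of A from 19.5 to 18.1%, while G went from 30.1 to 31.1% and C from 31.9 to 30.9%. The difference in G and C was not kept at the ends of the stretch. With pairs weighted equally, the tenth of the stretch next to the plus-strand start held 30.1% G and 34.3% C, and the tenth next to the minus-strand start 33.6% G and 32.7% C. Pairs also differed, and G minus C was higher in the right part in 264 pairs, lower in 221 and equal in 27.

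The median coding sequence was 402 codons (381 to 419, n = 1464) in members and 400 (395 to 406, n = 18877) in coding genes in no pair. Members had more exons in their largest transcript, with medians of 9 and 7, and more annotated transcripts, with medians of 4 and 2. Genes with another close neighbour had the same medians as members, 9 exons and 4 transcripts, so neither count set members apart from those genes. The median gene span was 18693 bases in members, 11001 in genes with another close neighbour and 16441 in coding genes in no pair. Without the receptor families the last group had a median span of 18719 bases (18168 to 19246), about that of members, and a median of 423 codons (418 to 429). Single-exon genes were 4.27% of members, 4.56% of genes with another close neighbour, and 11.7% of coding genes in no pair (6.21% without the receptor families).

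The 5′ untranslated region of the transcript with the longest coding sequence had a median of 148 bases (137 to 157) in members and 133 (130 to 135) in coding genes in no pair. Without the receptor families the latter was 145 (142 to 148), and the intervals overlapped. Models with no 5′ untranslated base, whose start is the start codon, were 18 of 1464 members (1.23%, 0.779 to 1.94%) and 10.0% of coding genes in no pair (5.21% without the receptor families). Of the 18, 7 were histones. Partners were weakly alike. Over the 744 pairs Spearman's rho between partners was 0.26 for gene span and 0.21 for the number of transcripts, and over 732 pairs it was 0.11 for 5′ untranslated length and 0.03 for codons. These are correlations across gene pairs that share chromosome position and base composition, given as a description.

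A gene start is the outermost start of any transcript, and many transcripts begin elsewhere. Of the 6800 transcripts of members 50.6% began within 100 bases of the gene start and 34.5% more than 1000 bases inside. The transcript with the longest complete coding sequence began within 100 bases in 1263 of 1464 members (86.3%). Taken between these transcripts, 618 of 732 pairs (84.4%) still started within 1000 bases, and their starts were a median of 232.5 bases apart over all 732. The start codons were much farther apart, with a median of 2761.5 bases (quartiles 693 and 9194), and 245 of 732 pairs had them within 1000 bases.

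RefSeq models gave a check on the starts. Of the 1476 members 1460 were matched to a RefSeq model, but a start was taken only where a promoter window was also found. Both partners had such a start in 556 pairs. Of these 405 (72.8%, 69.0 to 76.4%) were head-to-head within 1000 bases and without overlap, 127 (22.8%) overlapped at the 5′ ends and 24 (4.32%) were farther apart. The exact distance was the same in 26 pairs, and 86 pairs were within 10 bases. Over the 405 pairs the median distance was 100 bases in RefSeq and 136 in Ensembl. So the arrangement was shared by both annotations in most pairs, while the distance in bases was seldom shared. Examples are Cct5-Fam173b, at 5 bases in Ensembl and 270 in RefSeq, and Hnrnpa1-Cbx5, at 616 and 39, whereas Sdhd-Timm8b was at 52 bases in both and Hspa1a-Hspa1l at 547 in both.

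**Figure D5:**
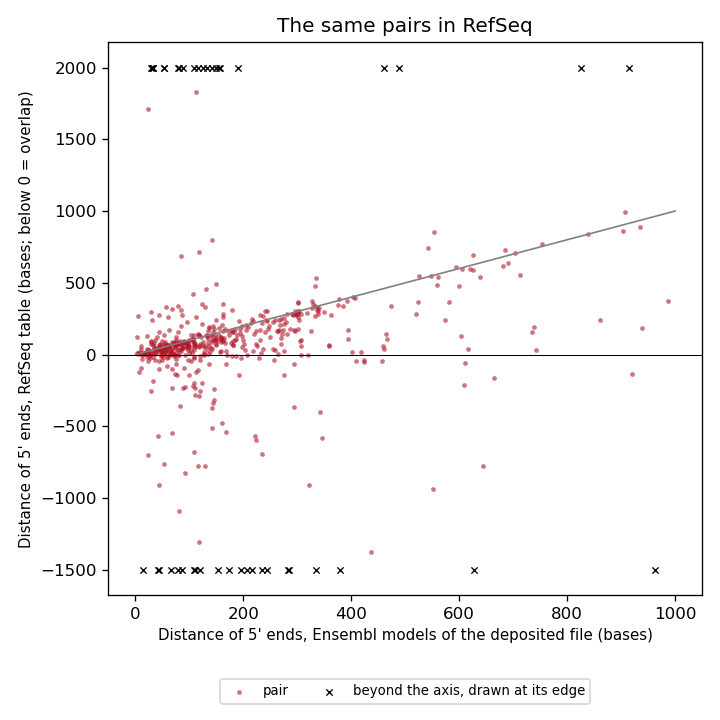
Distance between the 5′ ends of the 556 pairs in the RefSeq table (vertical axis, bases, negative where the models overlap) against that in the deposited Ensembl models (horizontal axis, bases); the grey line marks equal distances and crosses lie beyond the axis. The 405 pairs between 0 and 1000 bases in RefSeq mostly lie near or below the line, and 127 pairs lie below 0.

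Some shared stretches held exons of a further gene model. This was so for 39 of 744 pairs (5.24%, 3.86 to 7.09%), with an Ensembl model in 25 and a model added from other sources in 22. Part of these models are the partners again. In 14 pairs the further model carried the symbol of a partner or a RefSeq synonym of it, such as a second model of Dst at Bend6-Dst and Tmem93, a synonym of Emc6, at Emc6-Tax1bp3. Without such models 28 pairs (3.76%, 2.62 to 5.39%) were left, and models of a partner under a name that RefSeq does not list may remain among them. The further model was a long non-coding gene in 3 pairs, namely Gm28306 at Ccdc115-Imp4, Gm16163 at 2810004N23Rik-Gnpat and Tomm6os at Tomm6-Frs3. At Eme2-Mrps34, whose starts are 29 bases apart, it was Mapk8ip3, on the strand of Eme2.

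Finally, 12 genes were counted in 2 pairs, and in all 12 the partners were models that overlap each other. Mrto4, of ribosome assembly, lay 11 bases from Emc1 and 33 bases from Ubr4. Bend6 faced 2 models of the cytoskeletal linker gene Dst, at 409 and 456 bases, and Stag3, a meiotic cohesin subunit, faced 2 models of Gpc2, at 235 and 282. Pms1 lay 77 bases from Ormdl1 and 93 from Gm28778, Rabgap1 108 from Zbtb6 and 158 from Zbtb26, and Mocs3 31 from Dpm1 and 258 from Gm20716. Dclre1b had Ap4b1 at 76 bases and RP24-180F7.1 at 129, Fbxo24 had Lrch4 at 119 and Gm20605 at 173, and Rnf121 had Xndc1 at 42 and Xntrpc at 244. Ubr7 had AK010878 at 172 bases and Gm28051 at 210, and Bysl had Med20 at 90 and Gm20517 at 97. The starts of the 2 partners were 7 to 227 bases apart. All these distances are those of Ensembl, and RefSeq differed for several pairs. It placed Mrto4 and Ubr4 28083 bases apart and Rabgap1 and Zbtb6 12344. In RefSeq the models of Bend6 and Dst, of Stag3 and Gpc2, and of Rnf121 and both its partners overlapped at the 5′ ends. By contrast, RefSeq had Mrto4-Emc1 at 11 bases, Pms1-Ormdl1 at 64 and Zbtb26-Rabgap1 at 91. Several of the second partners carry provisional symbols, and 87 of all 744 pairs have at least 1 gene with a Gm or Rik symbol.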

How the data were processed

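The deposited file was a gene annotation for build mm10 in GTF format, with 1544831 lines and 115521 transcripts. It holds positions counted from 1, none of its lines carries a score, and 0 columns hold values per sample, so the planned tests of LPS and of ribosome profiling were not run. The submitters' processing notes name the aligner TopHat2, version 2.1.1, and mm10. For the assembly of the annotation by the authors no method is given in the labels or the file.

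Gene models were read with Python 3.11.15, pandas 2.3.3, numpy 2.4.6 and scipy 1.17.1, and figures were drawn with matplotlib 3.10.9. A gene's span ran from the first to the last base of its transcripts. Pairs were protein-coding Ensembl genes on chromosomes 1 to 19, with the distance taken as the difference of the positions of the 5′ ends. The pairing code was tested on simulated annotations. RefSeq starts and promoter windows (GRCm38.p6) were matched by gene ID or symbol, and 1460 of 1476 members were matched. Where sequence was read, windows of both partners were joined. Shares are given with Wilson 95% intervals and medians with order-statistic intervals, both of which allow for counting error alone. Genes of 1 annotation do not replicate each other, so differences were described without p-values.

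The members and lists were chosen with earlier results of these data known. By rule the text names the closest and farthest pairs, genes in 2 pairs and the first 4 paired members of each list. Other genes were chosen after their values were seen. Alternatives varied the distance limit, the gene models, the start, overlap and the thresholds. A comparison of partner proteins was not run, and some pairs that the rule would name are not reported here.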

Additional observations from a re-analysis of the deposited data

How the results depend on the processing

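Of 29 alternatives 16 stayed within 1.5 times the count, or within the interval of the share or median, and 13 did not. Overlap of 5′ ends by at most 1000 bases gave 1134 pairs and, chosen after seeing the data, a share of 10.8% of coding genes. The share was 6.43% with a limit of 500 bases, 6.31% without automatic models and, chosen after seeing the data, 7.60% without olfactory and vomeronasal receptors. The median distance was 173 bases from the start of the transcript with the longest coding sequence. At most 500 bases apart, 52.4% of close neighbours were head-to-head. High CpG content was found in 60.4% of members at stricter thresholds and in 86.3% of those in pairs within 300 bases. TATAA was found in 6.74%, and TATAAA 20 to 40 bases before the start, chosen after seeing the data, in 0.904%. With Ensembl genes only, 3.36% of pairs held a further gene between the starts, and without models named as a partner or its RefSeq synonym, chosen after seeing the data, 3.76%. The number of pairs was 676, 599 and 854 with limits of 500, 300 and 2000 bases, 496 without automatic models and 732 with complete coding sequences. With starts of the longest coding sequence it was 745. The automatic models and the choice of limit thus moved the number more than the choice of start. The pairs themselves did change with the start. Of 732 original pairs with such starts, 618 were still within 1000 bases, so the 745 include other pairs. The alternatives for alike proteins and for library values were not run. No paired analysis was possible because the results come from gene models and not from library values. Depth sets no limit here, and the limits are those of the annotation: a start that is set too far out or too far in by 1 transcript moves a pair into or out of the rule.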
